A study of Homo sapiens with 9 samples.

Results

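The BCL2 family sets whether a cell starts the mitochondrial route of apoptosis. The pro-survival members (BCL2, Bcl-xL from BCL2L1, and MCL1) hold the effectors BAX and BAK1 in check, and active effectors open pores in the outer mitochondrial membrane. The BH3-only members (BIM from BCL2L11, PUMA from BBC3, NOXA from PMAIP1, BID and BIK) bind pro-survival proteins, and some of them also activate the effectors directly. High Bcl-xL and MCL1 are known for protecting ovarian carcinoma cells from platinum drugs and other stresses.

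Here 10 of these genes were followed in cultured ovarian cancer cells in which MPZL3, a predicted cell adhesion molecule, was knocked down. They were the rows of the deposited count table whose gene symbol was BCL2, BCL2L1, MCL1, BAX, BAK1, BCL2L11, BBC3, PMAIP1, BID or BIK. The table held 58676 genes, and all 10 were among the 15975 with enough counts to be tested.

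All 9 libraries came from OVCA433, an established human cell line of ovarian serous adenocarcinoma grown in RPMI medium with serum. The control cells carried a control vector (genotype WT in the labels), and the other cells carried shRNA hairpin #1 or hairpin #3 against MPZL3, delivered by lentivirus. Each of the 3 groups had 3 libraries, marked A, B and C, which the study calls biological replicates. The study describes the OVCA433 control as an empty vector in its sequencing methods and as a scramble hairpin elsewhere, so the control may or may not have expressed a hairpin. Nothing in the labels says whether the transduced cells were clones or mixed populations. The comparisons asked how the level of each BCL2 family mRNA in the knockdown cells differed from control, with each hairpin and with both together, and whether the hairpins differed from each other. Levels are CPM, the deposited read counts brought to a common library size with TMM scaling factors. In bulk RNA, fewer cells expressing a gene and less RNA per cell cannot be told apart.

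Library totals ranged from 16850854 to 23890191 counts. The targeted gene followed the labels in every library. MPZL3 was at 15.59, 21.9 and 21.03 CPM in control A, B and C, at 1.869, 1.984 and 1.801 CPM with hairpin #1, and at 1.942, 0.9876 and 1.795 CPM with hairpin #3. Hairpin #1 left 9.66% and hairpin #3 left 8.07% of the control mean, and the hairpins did not differ in MPZL3 by the test (log2 fold change -0.25, 95% interval -0.81 to 0.31, adjusted p = 0.614). Markers of the line moved with the knockdown. The epithelial marker EPCAM fell from 402.6 ± 23.6 CPM to 5.48 ± 1.25 under hairpin #1 and 8.931 ± 1.34 under hairpin #3 (SD, n = 3), the lineage factor PAX8 rose from 96.99 ± 16.7 to 199.9 ± 12.2 and 207.3 ± 20.6, and MUC16, which encodes CA125, went from 3.18 ± 1.02 CPM to 0 counts in all 6 knockdown libraries, where the floor is 3 counts per library. In the ovarian serous list 6 of 7 tested genes passed the test in the pooled comparison, 2 higher and 4 lower, and WT1 had no count. Of all tested genes 33% passed in that comparison, 15.9% higher and 17% lower. Its summed level was 10020 to 12130 CPM in control and 5274 to 6765 CPM in knockdown libraries. Leukocyte markers summed to 0.4977 to 1.017 CPM in control and 0.1841 to 1.353 CPM in knockdown libraries, with LYZ at 0. Endothelial markers summed to 0.5474 to 1.017 and 4.159 to 7.503 CPM, with CDH5 and KDR higher, PECAM1 too low to test and VWF not past the test. Fibroblast markers summed to 17.77 to 21.55 and 100.5 to 850 CPM, almost all of it COL1A1, with COL1A2 and LUM also higher, PDGFRA too low to test and DCN at 0. The part of these shifts in the values of the BCL2 family genes was not tested.

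BIK and BCL2L1 were lower with both hairpins. BIK fell to 21.3% of its control level under hairpin #1 and 30.7% under hairpin #3, and BCL2L1 fell to 35.8% and 71.9%. BCL2, MCL1 and PMAIP1 rose with hairpin #3 by the test against control and did not pass with hairpin #1, and of these the direct test between the hairpins was passed by PMAIP1. Under alternative fits BCL2 also passed with hairpin #1, and BCL2 and MCL1 passed between the hairpins. BAX, BAK1, BCL2L11, BBC3 and BID passed in no comparison in the edgeR fit used for the main results. BAX, BCL2L11 and BID passed under some alternative fits, including fits that kept all 9 libraries.

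**Figure D1:**
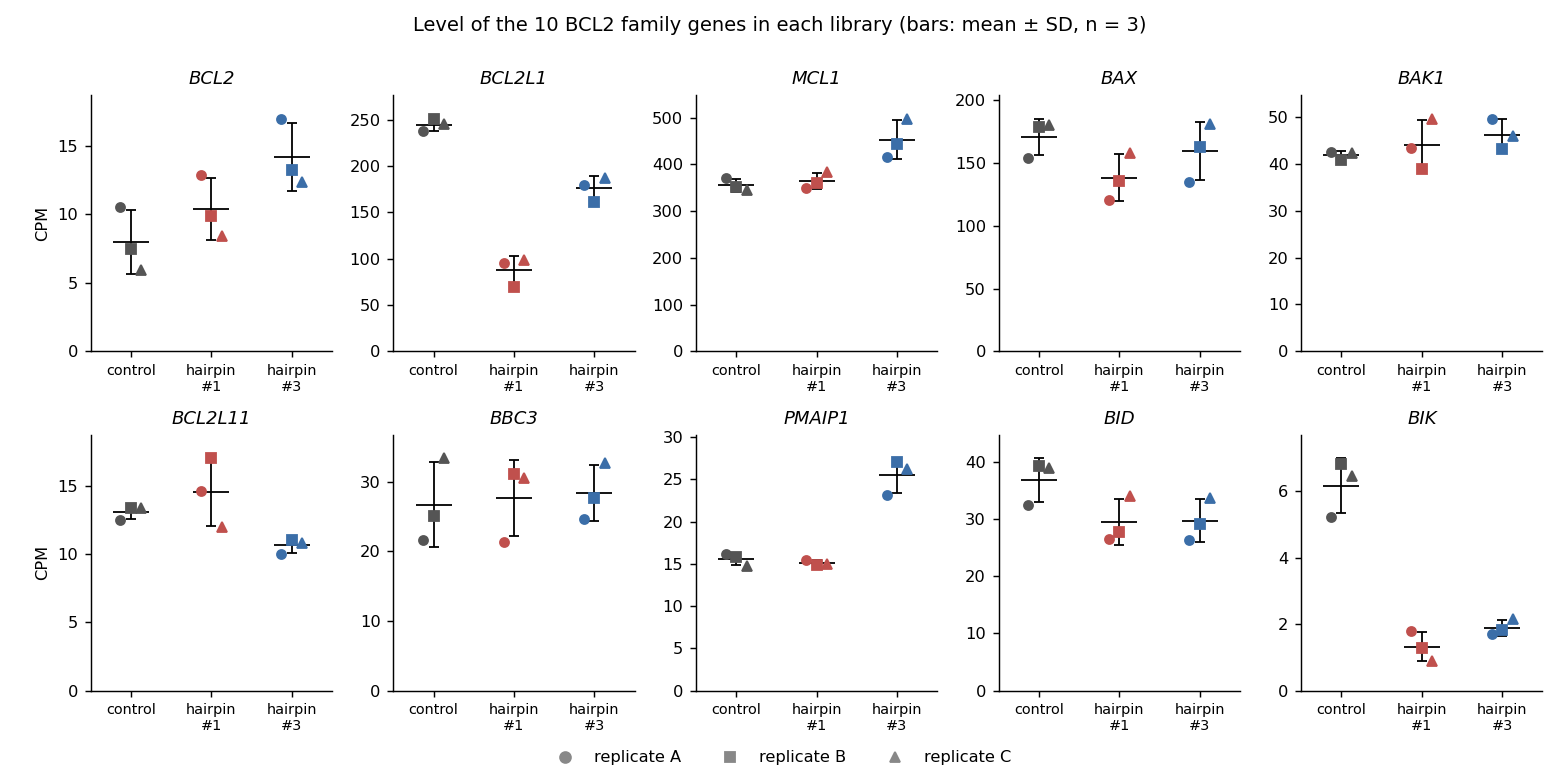
Level of each of the 10 BCL2 family genes, in CPM on a linear axis from 0, in the 3 libraries of each group. Symbols mark replicates A, B and C, and bars are the mean ± SD (n = 3). BIK and BCL2L1 are the genes whose 6 knockdown libraries all lie below the 3 control libraries, and PMAIP1 is raised with hairpin #3 alone.

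Among the pro-survival genes, BCL2L1 (ENSG00000171552, chromosome 20, 31664452 to 31723989, minus strand, GRCh38) gave the clearest change. It encodes Bcl-xL and, by alternative splicing, the pro-apoptotic Bcl-xS, which gene counts do not separate. Control A, B and C had 238.1, 250.8 and 246 CPM. Hairpin #1 libraries had 94.91, 69.59 and 98.44 CPM, and hairpin #3 libraries had 180.1, 161.6 and 186.8 CPM. The 3 groups did not overlap, with hairpin #1 lowest and hairpin #3 between it and control. The log2 fold change was -1.48 with hairpin #1 (SE 0.125, 95% interval -1.75 to -1.21, adjusted p = 7.7e-07) and -0.48 with hairpin #3 (SE 0.122, interval -0.74 to -0.21, adjusted p = 0.00827). The direct test of hairpin #3 against hairpin #1 gave 1.01 (SE 0.124, interval 0.74 to 1.28, adjusted p = 0.000181). With both hairpins pooled it was -0.89 (SE 0.267, adjusted p = 0.0228). The pooled fit took both hairpins as 1 group, so the difference between them counted in its spread. Over the 16 alternative fits the pooled adjusted p ranged from 4.97e-06 to 0.0718. The pooled call was lost without control A (adjusted p = 0.0549), without control B (0.0718) and without control C (0.0655), while the log2 fold change stayed between -0.91 and -0.88.

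The neighbourhood of BCL2L1 on chromosome 20 also shifted. The nearest 25 genes on each side (chr20:18138118-34825649), counting those that averaged 10 CPM or more, had a median log2 fold change of -0.38 with hairpin #1, -0.04 with hairpin #3 and 0.36 for hairpin #3 against hairpin #1. The 280 genes of the chromosome at that level gave -0.32, 0.00 and 0.33. BCL2L1 lay below all 50 neighbours with hairpin #1, below 45 of 50 with hairpin #3, and above all 50 in the comparison of the hairpins. Its difference from the median of its neighbours was -1.1 with hairpin #1, -0.43 with hairpin #3 and 0.65 between the hairpins. The part of the regional shift in the BCL2L1 values was not tested. BCL2L1 shares 1424 exonic bases with ABALON, an antisense RNA, and the libraries carry no strand, so their reads cannot be told apart there. ABALON had 0.846 counts per 100 counts of BCL2L1, at 1.569 ± 0.335 CPM in control, 0.6178 ± 0.108 under hairpin #1 and 2.237 ± 0.759 under hairpin #3.

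MCL1 (ENSG00000143384, chromosome 1, 150574551 to 150579738, minus strand) encodes a short-lived pro-survival protein. It had the highest level per length of the 10 genes in every group. Its control libraries had 371, 351.8 and 344.1 CPM, those with hairpin #1 had 350.4, 359.2 and 384.1 CPM, and those with hairpin #3 had 416.6, 442.9 and 498 CPM. Hairpin #1 overlapped control, and all hairpin #3 libraries were above every other library. Against control, the log2 fold change with hairpin #3 was 0.35 (SE 0.0974, interval 0.14 to 0.56, adjusted p = 0.0135), a call lost without control B (adjusted p = 0.0615), control C (0.0564) or hairpin #3 C (0.0725). With hairpin #1 it was 0.04 (interval -0.17 to 0.25, adjusted p = 0.806). The difference between the hairpins, 0.31 (interval 0.10 to 0.52), had an adjusted p of 0.0566, close to the threshold of 0.05, and it passed under 5 of 16 alternatives, without hairpin #3 A among them (adjusted p = 0.0415).

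BCL2 (ENSG00000171791, chromosome 18, 63123346 to 63320128, minus strand), which gives the family its name, was the lowest of the 10 per length in every group. It was at 10.51, 7.465 and 5.926 CPM in control A, B and C, at 12.9, 9.92 and 8.403 CPM under hairpin #1 and at 17.01, 13.22 and 12.38 CPM under hairpin #3. Hairpin #3 was above every control library, while hairpin #1 overlapped control. The log2 fold change was 0.83 with hairpin #3 (SE 0.219, interval 0.36 to 1.305, adjusted p = 0.00958) and 0.38 with hairpin #1 (interval -0.09 to 0.86, adjusted p = 0.194). The hairpins differed by 0.45 (interval -0.02 to 0.91, adjusted p = 0.222), which did not pass. The pooled value of 0.62 (interval 0.12 to 1.13) had an adjusted p of 0.0588, which became 0.0258 without control A and 0.0288 without hairpin #1 C. Without control A the value with hairpin #1 was 0.64, with an adjusted p of 0.0358. Within each replicate letter, hairpin #1 was above control and hairpin #3 was above hairpin #1. With the replicate letter entered as a block, BCL2 passed pooled, with each hairpin and between the hairpins, although the letters were not taken as pairs. It also passed pooled without a filter on low counts, with the DESeq2 Wald test and with a 3-group model.

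Per kilobase of gene length, the levels of these pro-survival genes can be set side by side. Control cells had 81.36 CPM per kb of MCL1, 73.91 of BCL2L1 and 0.6771 of BCL2. With hairpin #1 the values were 83.41, 26.45 and 0.8846 CPM per kb, and with hairpin #3 they were 103.5, 53.16 and 1.207 CPM per kb. BCL2L1 made up 47.4 ± 1.58% of their sum in control, 23.8 ± 3.15% under hairpin #1 and 33.7 ± 1.99% under hairpin #3 (SD, n = 3). MCL1 made up 52.2 ± 1.47%, 75.4 ± 3.18% and 65.5 ± 2.14%. The sum was 156 ± 2.2 CPM per kb in control, 110.7 ± 7.17 under hairpin #1 and 157.9 ± 11.7 under hairpin #3. Control libraries held 1.1 times as much MCL1 as BCL2L1 mRNA per length. In both knockdowns the mix lay toward MCL1, at a sum below control with hairpin #1 and at a sum overlapping control with hairpin #3. These shares are of mRNA over the gene length listed in the count table, whatever isoform was made, and are given without a test. BCL2L1 shares 1424 exonic bases with ABALON, where reads cannot be told apart. The effect of this on its level, share and rank per length was not tested.

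**Figure D2:**
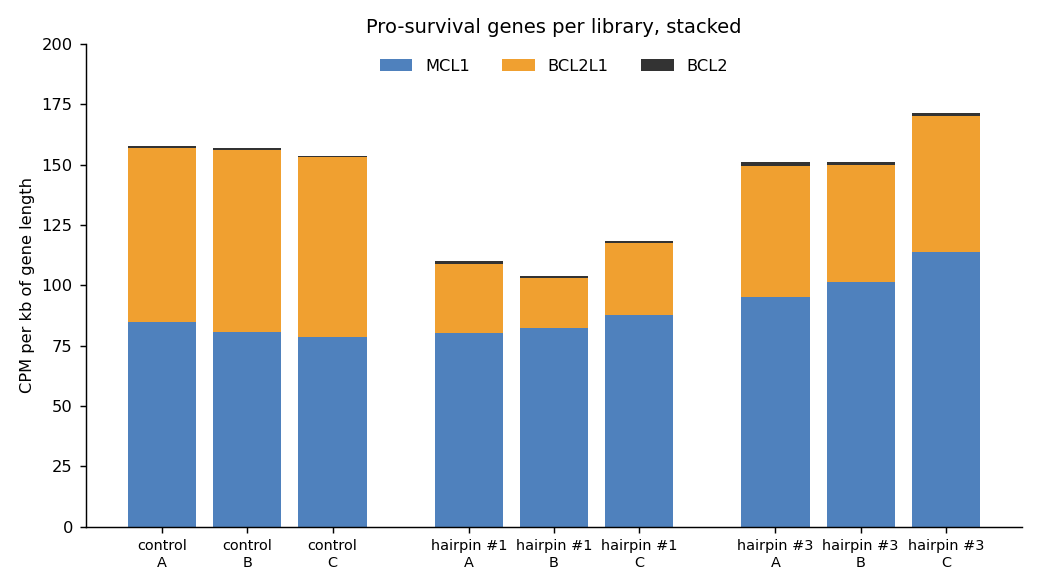
Levels of MCL1, BCL2L1 and BCL2 per library, in CPM per kilobase of gene length, stacked on an axis from 0. The BCL2L1 segment is 45.6% to 48.4% of the bar in control libraries, 20.2% to 26.1% with hairpin #1 and 32.2% to 36% with hairpin #3, and BCL2 stays under 1% of each bar.

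Neither effector passed against control or between the hairpins in the edgeR fit used for the main results. BAX (ENSG00000087088, chromosome 19, 48954815 to 48961798, plus strand), a pore former that moves to mitochondria on activation, had 154.3, 178.8 and 180 CPM in control, 120.8, 135.9 and 158.3 CPM under hairpin #1 and 135, 163.1 and 180.8 CPM under hairpin #3. Its groups overlapped. The log2 fold change was -0.31 with hairpin #1 (interval -0.58 to -0.03, adjusted p = 0.0779) and -0.10 with hairpin #3 (interval -0.38 to 0.18, adjusted p = 0.60). The first of these was -0.42 with an adjusted p of 0.0306 without hairpin #1 C, and -0.31 with an adjusted p of 0.0478 without hairpin #3 A. With the replicate letter entered as a block, BAX passed with hairpin #1 and between the hairpins. BAK1 (ENSG00000030110, chromosome 6, 33572547 to 33580293, minus strand), a pore former that sits at mitochondria, had 42.66, 40.86 and 42.29 CPM in control, 43.41, 38.87 and 49.69 CPM under hairpin #1 and 49.72, 43.18 and 45.94 CPM under hairpin #3. Its hairpin #3 libraries lay just above the control range, and the log2 fold change of 0.14 (interval -0.09 to 0.37) had an adjusted p of 0.343. BAK1 shares 91 exonic bases with the pseudogene GGNBP1 on the other strand, which had 3.59 counts per 100 counts of BAK1. BAX and BAK1 together, without their relative BOK, summed to 85.07 ± 5.35 CPM per kb in control. Their sum was 73.36 ± 9.11 under hairpin #1 and 82.64 ± 7.99 under hairpin #3.

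Among the BH3-only genes, BIK (ENSG00000100290, chromosome 22, 43110748 to 43129712, plus strand) had the largest change of the 10 genes in the pooled comparison. It encodes a killer protein that acts mainly at the endoplasmic reticulum. Control A, B and C had 5.23, 6.818 and 6.452 CPM, hairpin #1 libraries had 1.776, 1.272 and 0.9003 CPM, and hairpin #3 libraries had 1.706, 1.811 and 2.163 CPM. The highest knockdown library was under the lowest control library by more than the range within any group. These values rest on 108, 137 and 135 counts in control, 38, 25 and 21 with hairpin #1, and 29, 33 and 47 with hairpin #3, so counting error is larger here than for the other 9 genes. For BIK the log2 fold change was -2.23 with hairpin #1 (SE 0.252, interval -2.77 to -1.68, adjusted p = 1.19e-05), -1.69 with hairpin #3 (SE 0.244, interval -2.22 to -1.17, adjusted p = 0.000114) and -1.94 pooled (SE 0.239, adjusted p = 6.17e-05). The hairpins did not differ by the test (0.54, interval -0.06 to 1.13, adjusted p = 0.254). No gene among its 50 neighbours on the chromosome was lower than BIK in any of the comparisons with control, and their median log2 fold change was -0.01 under hairpin #1 and 0.01 under hairpin #3.

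PMAIP1 (ENSG00000141682, chromosome 18, 59899948 to 59904306, plus strand) encodes NOXA, which binds chiefly to MCL1. Its control libraries had 16.17, 15.83 and 14.77 CPM, close to the 15.47, 14.85 and 14.96 CPM with hairpin #1. With hairpin #3 it had 23.13, 27.1 and 26.19 CPM, above all 6 other libraries. On the log2 scale the fold change was 0.71 with hairpin #3 (SE 0.109, interval 0.47 to 0.94, adjusted p = 0.00019) and -0.05 with hairpin #1 (SE 0.11, interval -0.28 to 0.19, adjusted p = 0.778). Hairpin #3 against hairpin #1 gave 0.76 (SE 0.109, interval 0.52 to 0.99, adjusted p = 0.000581), so the level differed between the hairpins. PMAIP1 lay above all 50 of its neighbours in that comparison, whose median was -0.10. BCL2 lies on the same chromosome and is among these neighbours, as PMAIP1 is among those of BCL2. Most of their other neighbours are the same genes. BAX and BBC3 also have a part of their neighbours in common.

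BCL2L11 (ENSG00000153094, chromosome 2, 111119378 to 111168447, plus strand) encodes BIM, which binds all pro-survival members. It was at 12.45, 13.39 and 13.33 CPM in control, 14.58, 16.99 and 12 CPM under hairpin #1 and 10, 11.03 and 10.82 CPM under hairpin #3. The hairpin #3 libraries lay below every other library. The log2 fold change against control was -0.30 with hairpin #3 (interval -0.60 to 0.01, adjusted p = 0.127) and 0.15 with hairpin #1 (adjusted p = 0.429). Hairpin #3 against hairpin #1 gave -0.45 (interval -0.75 to -0.14, adjusted p = 0.0578), which did not pass but had an adjusted p of 0.0249 without hairpin #1 C. The same difference passed with the DESeq2 Wald test and with the replicate letter entered as a block.

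BID (ENSG00000015475, chromosome 22, 17734138 to 17774770, minus strand), which caspase-8 cleaves to link death receptors to mitochondria, had 32.44, 39.22 and 38.85 CPM in control, 26.54, 27.62 and 34.04 CPM under hairpin #1 and 26.3, 29.13 and 33.69 CPM under hairpin #3. Replicate C of each hairpin overlapped control A, while within each replicate letter both hairpins were below control. The log2 fold change was -0.32 with hairpin #1 (adjusted p = 0.0682), -0.31 with hairpin #3 (adjusted p = 0.0885) and -0.32 pooled (SE 0.115, interval -0.57 to -0.07, adjusted p = 0.0525). The pooled adjusted p was 0.0371 without control A, 0.0293 without hairpin #1 C and 0.033 without hairpin #3 C. Against control, the adjusted p with hairpin #1 was 0.0353 without control A and 0.0229 without hairpin #1 C, and with hairpin #3 it was 0.0454 without control A and 0.0476 without hairpin #3 C. With the replicate letter entered as a block, BID passed pooled and with each hairpin, although the letters were not taken as pairs. It also passed pooled with library totals, the DESeq2 Wald test and a 3-group model. BBC3 (ENSG00000105327, chromosome 19, 47220822 to 47232766, minus strand), which encodes PUMA, had 21.6, 25.08 and 33.45 CPM in control, 21.4, 31.08 and 30.53 CPM under hairpin #1 and 24.71, 27.71 and 32.68 CPM under hairpin #3. Its groups overlapped in every comparison. The pooled log2 fold change was 0.07 (interval -0.28 to 0.42, adjusted p = 0.785).

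Per length, a sum was taken over the BH3-only genes BCL2L11, BBC3, PMAIP1, BID and BIK, without their relatives BMF, BAD and HRK. This sum was 32.09 ± 3.07 CPM per kb in control, 25.63 ± 1.7 under hairpin #1 and 30.58 ± 3.09 under hairpin #3. BIK made up 20.1 ± 1.38% of this sum in control, 5.48 ± 2.2% under hairpin #1 and 6.49 ± 0.326% under hairpin #3. PMAIP1 made up 21.9 ± 3.1%, 26.5 ± 2.4% and 37.4 ± 2.13%. BIK thus went from a level beside PMAIP1, with overlapping ranges in control (6.471 and 6.975 CPM per kb), to 1.381 against 6.754 CPM per kb with hairpin #1 and 1.987 against 11.4 CPM per kb with hairpin #3.

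The order of all 10 genes per length in control was MCL1, BCL2L1, BAX (66.11 CPM per kb), BAK1 (18.96), BBC3 (8.4), BID (8.286), PMAIP1, BIK, BCL2L11 (1.961) and BCL2. Neighbours in this order had ranges that overlapped for BBC3 and BID and for PMAIP1 and BIK, and did not overlap for the rest. With hairpin #1 BCL2L1 dropped behind BAX (53.47 CPM per kb), and its range overlapped that of BAK1 (19.89). With hairpin #3 BAX (61.71) was also ahead of BCL2L1, but their ranges overlapped.

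**Figure D3:**
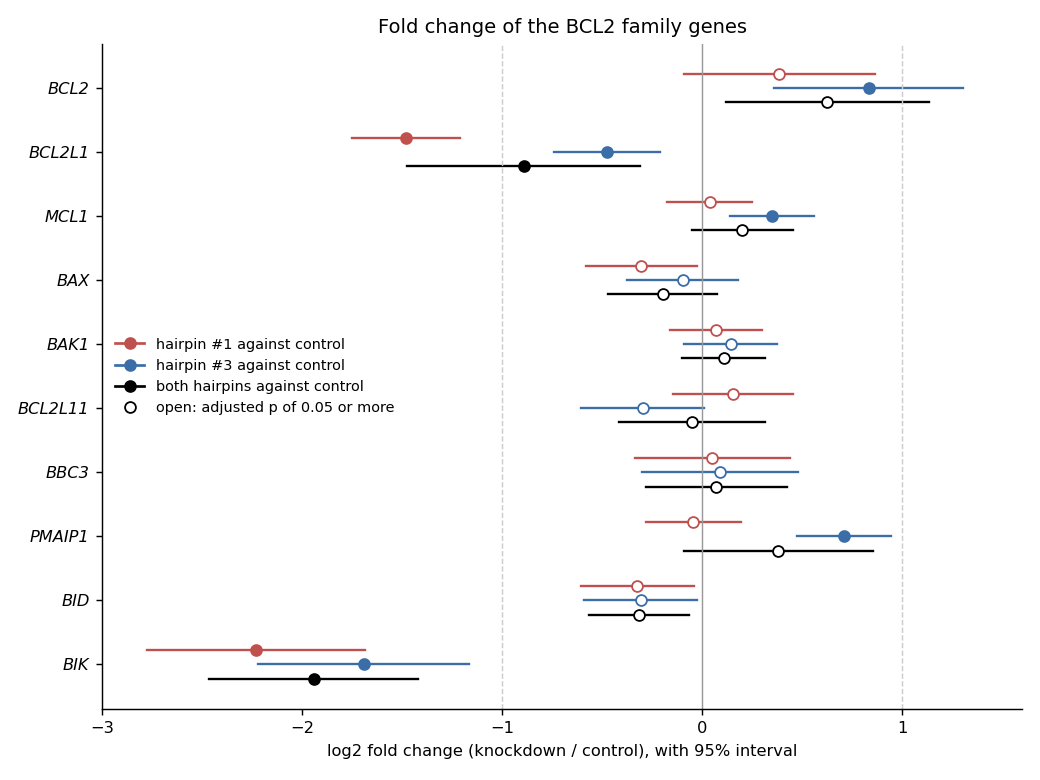
log2 fold change of each BCL2 family gene for hairpin #1, hairpin #3 and both pooled, each against the control libraries, with 95% intervals. Filled points have an adjusted p under 0.05, and dashed lines mark a 2-fold change. BIK is filled in all 3 comparisons beyond the 2-fold line, BCL2L1 is filled in all 3 with hairpin #1 well below hairpin #3, and BCL2, MCL1 and PMAIP1 are filled for hairpin #3 only.

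The counts over the 10 genes were set beside those over all 15975 tested genes. In the pooled comparison 2 of 10 passed, both lower, where 33% of all tested genes passed (15.9% higher and 17% lower), and 1 of 10, BIK, also changed at least 2-fold, against 14.7%. With hairpin #1 2 of 10 passed, both lower and both at least 2-fold, against 37.8% of all genes (18% higher and 19.7% lower) and 16.3% at 2-fold. With hairpin #3 5 of 10 passed, 3 higher and 2 lower, against 34.7% (16.6% higher and 18.1% lower), and BIK alone changed 2-fold, against 15.3%. In hairpin #3 against hairpin #1 BCL2L1 and PMAIP1 passed, both higher, against 11.6% (6.33% higher and 5.3% lower), and BCL2L1 alone was 2-fold apart, against 3.93%. BCL2L1 and BIK passed in the same direction with both hairpins, as did 13.3% of all genes lower and 12% higher. The 2 hairpin comparisons share the same 3 control libraries.

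Groups that did not overlap were counted in the same way. All knockdown libraries were on 1 side of all control libraries for 2 of 10 genes, against 33.1% of all genes. Hairpin #1 and control did not overlap for 2 of 10, against 47.3%. Hairpin #3 and control did not overlap for 7 of 10, against 47.9%, with BCL2, MCL1, BAK1 and PMAIP1 above and BCL2L1, BCL2L11 and BIK below. The hairpins did not overlap for 4 of 10, against 27.7%, with BCL2L1, MCL1 and PMAIP1 higher and BCL2L11 lower with hairpin #3. The median log2 fold change of the 10 genes was 0.01 pooled, beside 0.00 for all tested genes. Between the hairpins it was 0.26, beside -0.01, with 9 of 10 genes higher with hairpin #3. Among the 9, BCL2L1 and PMAIP1 passed the test. BAK1 (0.07), BBC3 (0.04) and BID (0.02) changed sign when single libraries were left out. The share of all tested genes that were higher with hairpin #3, whether or not they passed, was not counted.

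**Figure D4:**
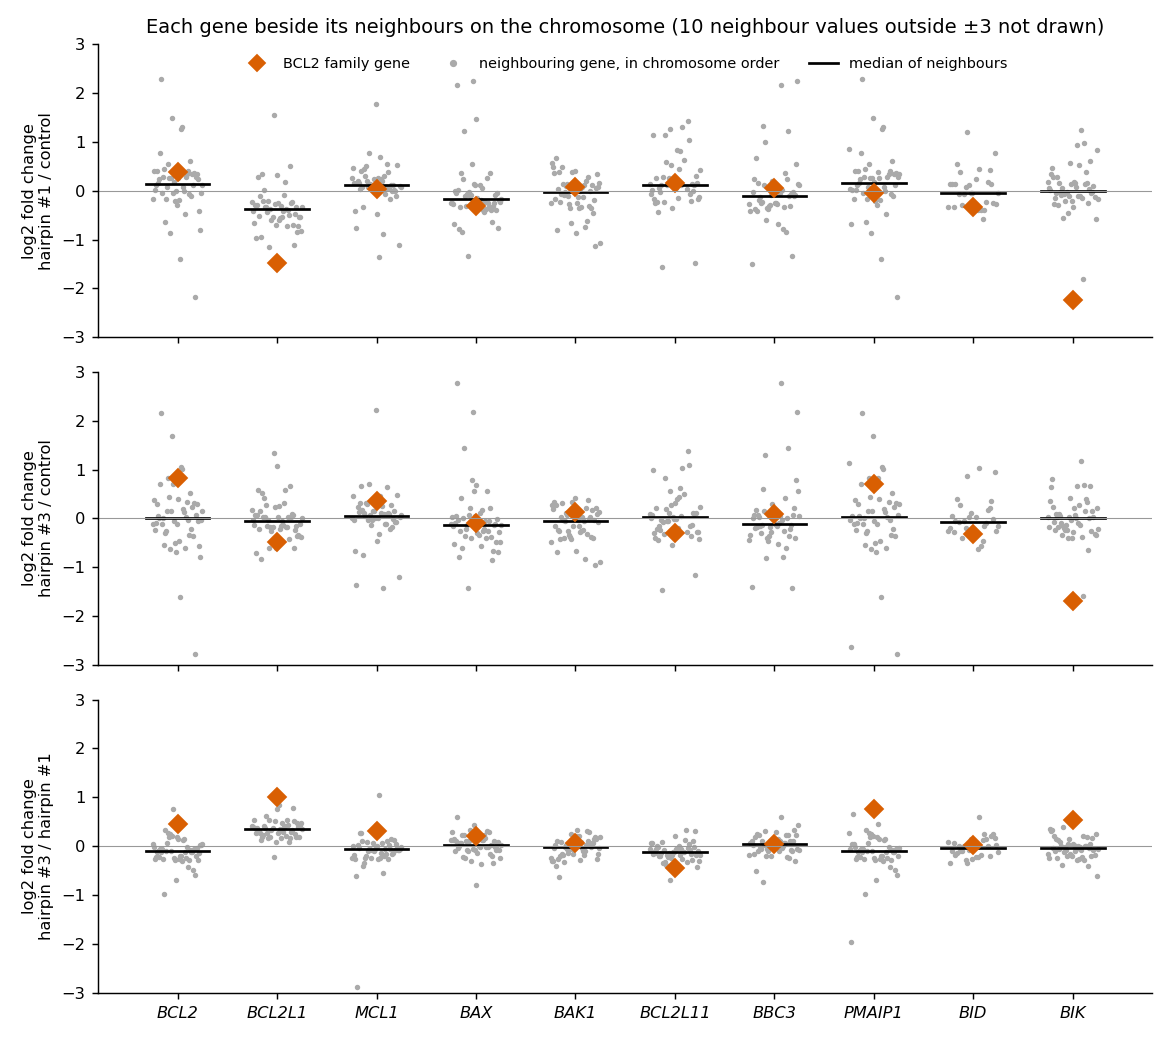
log2 fold change of each BCL2 family gene (diamond) and of its neighbours on the chromosome in chromosome order (dots, 50 genes, or 30 for BID), with the neighbours' median as a line; 10 neighbour values beyond 3 in either direction are not drawn. The neighbours of BCL2L1 are shifted down with hairpin #1 and up for hairpin #3 against hairpin #1, with BCL2L1 outside all 50 in both, and BIK lies far below neighbours centred near 0.

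Replicates shared some of their spread across groups. In all 3 groups replicate A was the lowest for BAX, BBC3 and BID and the highest for BCL2, so for these 4 genes the SD within a group partly follows the letter of the replicate. BIK and BCL2L1 did not show this pattern.

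The genes whose profile over the 9 libraries was most like that of BIK were PLEKHG3, SH3BGRL2 and VAMP8, the last a SNARE protein of endosomes and secretory granules. Their root mean square difference from BIK in centred log2 CPM was 0.207, 0.222 and 0.238, over 9693 genes that averaged 10 CPM or more, while BIK itself varied with an SD of 0.962. PLEKHG3 was at -1.98 on the log2 fold change scale with hairpin #1 and -1.55 with hairpin #3. For BCL2L1 they were KBTBD11, ADCY7, an adenylate cyclase, and MAEA, a subunit of a ubiquitin ligase, at 0.158, 0.175 and 0.195, where BCL2L1 varied with an SD of 0.64. KBTBD11 was at -1.19 with hairpin #1 and -0.41 with hairpin #3. KBTBD11 lies on chromosome 8, ADCY7 on chromosome 16 and MAEA on chromosome 4. Regional shifts around these genes were not tested.

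The wider BCL2 family was examined from a list of 14 further genes, of which 10 were tested. BCL2A1, BCL2L10, BCL2L14 and BCL2L15 had too few counts, with group means of 0.3258 CPM or less. In the pooled comparison 5 of 10 passed, 3 higher and 2 lower, beside 33% of all tested genes, with a median log2 fold change of 0.06 beside 0.00. With hairpin #1 6 passed (3 higher, 3 lower) beside 37.8% of all genes, and with hairpin #3 4 passed (2 higher, 2 lower) beside 34.7%. Between the hairpins 2 passed, both lower with hairpin #3, beside 11.6%.

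BMF, a BH3-only gene whose product responds to loss of attachment to the matrix, rose most among them. It was at 5.327, 7.415 and 10.75 CPM in control, 20.28, 32.81 and 24.7 CPM under hairpin #1 and 16.24, 13.88 and 14.64 CPM under hairpin #3. The 3 groups did not overlap, with hairpin #1 highest. Its log2 fold change was 1.38 pooled (SE 0.306, adjusted p = 0.00435), 1.72 with hairpin #1 (adjusted p = 4.64e-05) and 0.93 with hairpin #3 (adjusted p = 0.00646), and hairpin #3 was below hairpin #1 by the direct test (-0.80, adjusted p = 0.0311).

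The mitophagy receptors BNIP3 and BNIP3L, which are more distant relatives, were also higher. BNIP3 went from 43.49 ± 2.07 CPM in control to 69.92 ± 5.15 under hairpin #1 and 71.02 ± 4.01 under hairpin #3 (pooled log2 fold change 0.70, SE 0.084, adjusted p = 5.32e-05). BNIP3L went from 70.93 ± 5.04 to 93.68 ± 7.56 and 83.61 ± 2.92 CPM (0.32, SE 0.0931, adjusted p = 0.0195), with hairpin #3 alone not passing (adjusted p = 0.0716). BNIP3 and BNIP3L were above all control libraries in 6 of 6 knockdown libraries.

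BCL2L2, which encodes the pro-survival protein Bcl-w, fell. It was at 43.87, 40.91 and 39.23 CPM in control, 27.99, 32.25 and 31.25 CPM under hairpin #1 and 29.19, 31.16 and 31.07 CPM under hairpin #3, all knockdown libraries being below control. Pooled over the hairpins, Bcl-w mRNA was at -0.44 on the log2 scale (SE 0.0829, adjusted p = 0.00154), and it was at -0.44 with each hairpin. BCL2L12 fell from 62.44 ± 0.941 CPM to 50.19 ± 5.6 under hairpin #1 and 39.53 ± 0.785 under hairpin #3 (pooled -0.48, SE 0.12, adjusted p = 0.00919), and the hairpins differed (-0.35, adjusted p = 0.0386).

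The other 5 did not pass in the pooled comparison. BAD, a BH3-only gene regulated by survival kinases, was at 10.02 ± 0.045 CPM in control, 6.993 ± 1.41 under hairpin #1 and 7.941 ± 1.19 under hairpin #3 (-0.43, adjusted p = 0.0565), and it passed with hairpin #1 (-0.52, adjusted p = 0.0304). HRK, another BH3-only gene, was under 1.1 CPM in every library (-0.89, adjusted p = 0.0515). BAD and HRK were below all control libraries in 6 of 6 knockdown libraries. BOK, an effector relative of BAX and BAK1, was at 0.14 (adjusted p = 0.415), BCL2L13 at 0.05 (adjusted p = 0.703) and BNIP1 at 0.07 (adjusted p = 0.764) on the log2 scale.

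**Figure D5:**
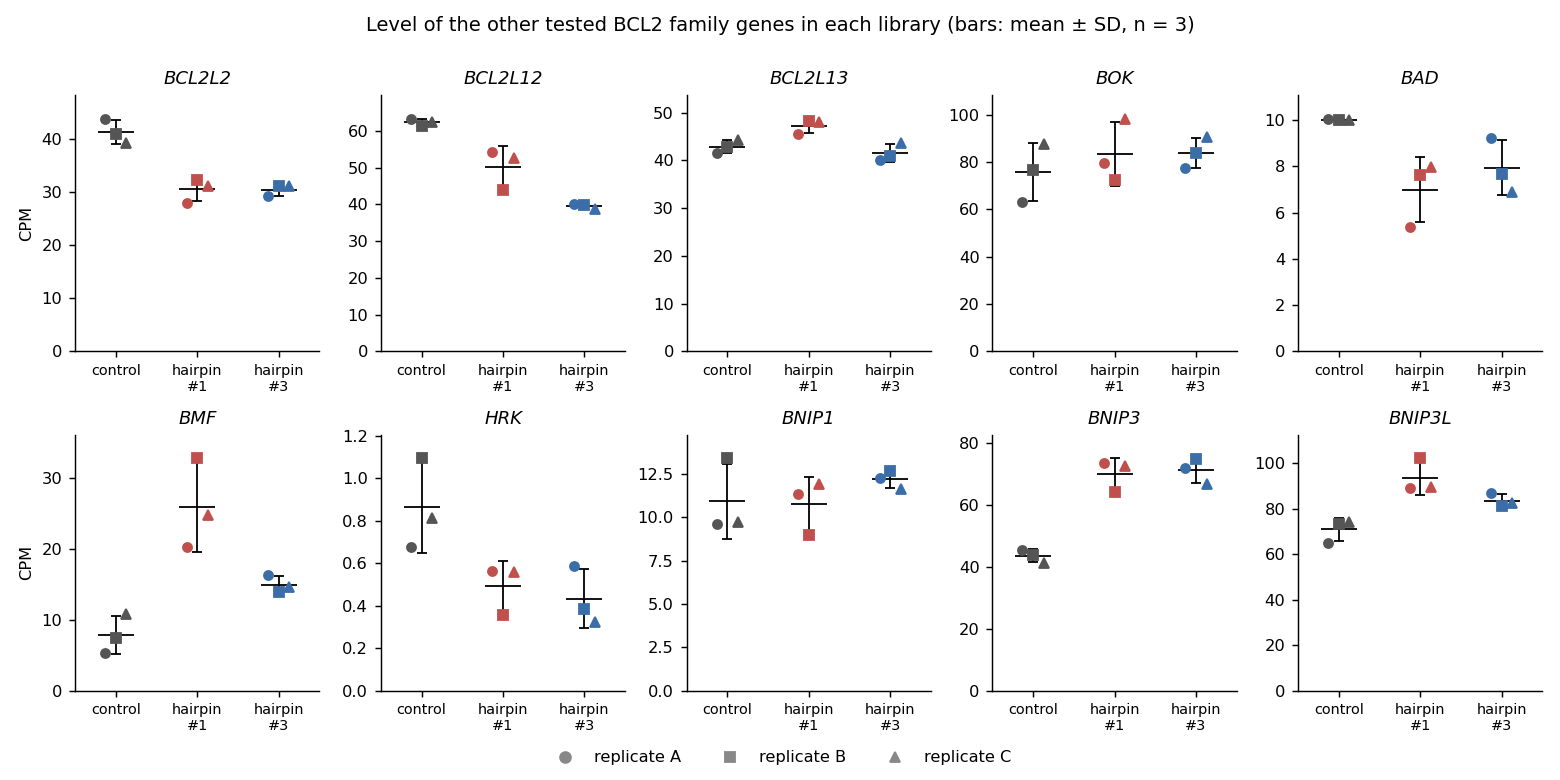
Level of the 10 other BCL2 family genes that were tested, in CPM on linear axes from 0, per library and group. Symbols mark replicates A, B and C, and bars are the mean ± SD (n = 3). BMF, BNIP3 and BNIP3L lie higher and BCL2L2, BCL2L12, BAD and HRK lower in all 6 knockdown libraries than in the 3 control libraries, and BAD and HRK did not pass the pooled test.

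Genes that act upstream and downstream of the BCL2 family were counted from 4 further lists, of which 3 are described here. Together with the 14 relatives above they held 78 genes outside the 10, of which 71 were tested. In the pooled comparison 23 of 71 passed (32.4%, beside 33% of all genes), 9 higher and 14 lower. The shares were 42.3% with hairpin #1, 39.4% with hairpin #3 and 15.5% between the hairpins, beside 37.8%, 34.7% and 11.6% of all genes.

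Downstream of mitochondria, 4 of 19 genes of the apoptosome, the caspases and their inhibitors passed in the pooled comparison, beside 33% of all genes. Of these 1 was higher and 3 were lower, and the median log2 fold change of the list was -0.10. APAF1, the scaffold that activates caspase-9 after cytochrome c release, rose from 28.4 ± 1.58 CPM to 44.51 ± 4.48 under hairpin #1 and 52.91 ± 2.44 under hairpin #3 (0.78, SE 0.112, adjusted p = 0.000212). CASP6, an executioner caspase, fell from 33.34 ± 4.39 to 16.39 ± 0.795 and 21.23 ± 0.362 CPM (-0.83, SE 0.132, adjusted p = 0.000465). MTCH2, a mitochondrial outer membrane protein that recruits truncated BID, fell from 117.6 ± 3.71 to 101.3 ± 6.84 and 92.96 ± 5.09 CPM (-0.28, SE 0.0823, adjusted p = 0.0225), with hairpin #1 alone not passing (adjusted p = 0.0747).

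In the death receptor pathway, which BID connects to mitochondria, 4 of 12 tested genes passed in the pooled comparison, beside 33% of all genes. Of these 1 was higher and 3 were lower, and the median of the list was -0.01. The receptor TNFRSF10A fell from 22.28 ± 3.19 CPM to 10.92 ± 0.683 under hairpin #1 and 12.53 ± 1.44 under hairpin #3 (-0.93, SE 0.128, adjusted p = 0.000147). The receptor FAS fell from 36.73 ± 0.514 to 21.58 ± 3.17 and 26.86 ± 2.81 CPM (-0.60, SE 0.13, adjusted p = 0.00382), and the initiator caspase CASP10 fell from 12.72 ± 1.06 to 8.986 ± 1.08 and 7.87 ± 0.733 CPM (-0.59, SE 0.131, adjusted p = 0.0043).

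Among transcription factors and other regulators of the family, 3 of 13 tested genes passed in the pooled comparison, beside 33% of all genes. FOXO3 and MYC were among those that passed, and the median of the list was 0.03. FOXO3, which can induce BCL2L11, fell from 100.1 ± 12 CPM to 67.35 ± 5.22 under hairpin #1 and 57.78 ± 7.16 under hairpin #3 (-0.68, SE 0.115, adjusted p = 0.000728). MYC rose from 102.6 ± 6.56 to 136.9 ± 24.7 and 175.3 ± 34.8 CPM (0.61, SE 0.167, adjusted p = 0.0154).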

How the data were processed

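The authors deposited raw read counts per gene for 9 libraries of poly(A)-selected, non-directional RNA, with no normalization or filter. The submitters' processing notes name HISAT2 2.0.5, featureCounts 1.5.0-p3 and hg38. Gene positions and lengths are those of the count table, and all 10 members had the same position in GENCODE 29.

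Genes were filtered with filterByExpr (minimum count 10, minimum total count 15), scaled by TMM and tested by quasi-likelihood in edgeR 4.0.16 (R 4.3.3), and p-values were adjusted by Benjamini-Hochberg over 15975 genes. A gene passed at an adjusted p-value under 0.05. The pooled comparison set 6 knockdown libraries against 3 control libraries, and each hairpin was tested in a model of 3 groups on all 9 libraries. Standard errors were the log2 fold change divided by the root of F. DESeq2 1.42.0, other scalings and filters, and leaving out each library were alternatives. The steps were tested on simulated data. Chi-square tests within groups found no pair of libraries that agreed within sampling noise.

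The members and gene lists were chosen with earlier results of these data known. Named genes were MPZL3, the 10 members, the tested relatives, the 3 genes of smallest pooled adjusted p in each other list described, and, for the 2 passing members of largest pooled change, the 3 genes of nearest profile. Marker genes, genes sharing bases with a member, and their values were added as checks. Intervals are those of the fit. Reads carry no molecular identifiers, so PCR copies were counted. The 4th further list and 1 gene of the list of regulators are not reported here.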

Additional observations from a re-analysis of the deposited data

Results flagged for a closer look

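BCL2L1 differed in level between the hairpins. Its level was 87.65 ± 15.7 CPM with hairpin #1 and 176.2 ± 13.1 CPM with hairpin #3 (SD, n = 3), and the direct test of hairpin #3 against hairpin #1 gave a log2 fold change of 1.01 (adjusted p = 0.000181), with all 3 libraries of hairpin #3 higher. Its 50 neighbours on chromosome 20 had a median of 0.36 in the same comparison, and their part in the difference was not tested.

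PMAIP1 also differed between the hairpins, at 15.1 ± 0.327 CPM with hairpin #1 and 25.47 ± 2.08 CPM with hairpin #3, a log2 fold change of 0.76 (adjusted p = 0.000581), with all 3 libraries of hairpin #3 higher. Its neighbours on chromosome 18 had a median of -0.10. MPZL3 itself did not differ by the test between the hairpins (adjusted p = 0.614).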

How the results depend on the processing

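Each of the 40 log2 fold changes of single members was recomputed under 16 alternatives. BIK against control, BCL2L1 with each hairpin and between the hairpins, and PMAIP1 and BCL2 with hairpin #3 kept their calls under all of them. In all, 18 of 40 results kept direction and call, 13 changed their call in the same direction, and 9 changed sign when a library was left out.

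The number of members passing in the pooled comparison, 2, became 1 at an adjusted p under 0.01 and 1 with a 2-fold change, 4 with the DESeq2 Wald test (BCL2 and BID added), and 5 with a 3-group model (PMAIP1 added as well), and leaving out single libraries gave 1 to 4, with BIK alone left without control B or C and 4 without hairpin #1 C. With hairpin #1 leaving out libraries gave 2 to 4 (4 without control A or hairpin #1 C), and with hairpin #3 4 to 6. With the 2-fold change 1 passed with hairpin #3 and 1 between the hairpins, where the DESeq2 Wald test gave 4 (MCL1 and BCL2L11 added). Scaling by library totals gave calls to BID pooled (adjusted p = 0.0398) and with hairpin #1 (0.0465) and to MCL1 between the hairpins (0.0388), and a filter at a mean of 1 CPM gave a call to the last of these (0.0488). Without a filter on low counts BCL2 passed pooled (0.0416). The 23 pathway genes became 3 with the 2-fold change and 16 to 29 when libraries were left out. The share of all tested genes was not counted at an adjusted p under 0.01 or under these alternative fits. A change in these numbers therefore cannot be set apart from a change over all genes.

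Libraries of the same letter deviated together in 8 of 9 pairs (correlation over 0.1 across 9693 genes, range 0.0651 to 0.655, against -0.646 to 0.317 for other pairs of groups), and not every library correlated best with its own letter, so the letters were not taken as pairs. With the replicate letter entered as a block, the fit gave 4 members pooled (BCL2, BCL2L1, BID and BIK), 5 with hairpin #1 (BAX as well), 6 with hairpin #3 (BID added) and 6 between the hairpins (BCL2, BCL2L1, MCL1, BAX, BCL2L11 and PMAIP1). The share of all tested genes that passed was not counted under this or the other alternative fits. The numbers of members under them therefore have no background beside them.

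Sign changes came from leaving out single libraries and concerned values near 0 that did not pass. BBC3 ranged from -0.0627 to 0.262 pooled, -0.0815 to 0.243 with hairpin #1, -0.0435 to 0.281 with hairpin #3 and -0.121 to 0.131 between the hairpins. MCL1 with hairpin #1 ranged from -0.00736 to 0.0674, BAK1 with hairpin #1 from -0.0313 to 0.147 and between the hairpins from -0.00528 to 0.172, BAX with hairpin #3 from -0.197 to 0.00546, and BID between the hairpins from -0.0799 to 0.137. Their cause was not tested. BIK, at 21 to 137 counts per library, is the member most limited by depth.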
